A study of Mus musculus with 4 samples.

Results

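The genes of cholesterol and fatty acid synthesis were examined in ear skin of mice with and without an epithelial knockout of Traf6, with and without imiquimod (IMQ). A list of 30 genes was set by name: 18 enzymes of the sterol branch, 6 genes of the fatty acid branch, and 6 genes of control and transport. Of these, 29 were measured among 19938 named genes, and a gene with several probe sets is given by the brightest on average. Acat2, the thiolase that makes acetoacetyl-CoA, had no probe set listed under its symbol and has no value here.

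RNA came from whole ears of 8-week-old female mice and was read on Affymetrix Mouse Gene 1.0 ST arrays, 1 array for each of 4 groups. The groups were Traf6EKO (EKO) with IMQ, Traf6EKO untreated, Traf6f/f (f/f) with IMQ, and Traf6f/f untreated. Untreated stands for the words without IMQ treatment in the sample titles, which do not say whether a vehicle cream was applied. The f/f mice carry floxed Traf6 without the knockout, the knockout is described as specific to keratinocytes, and no source used here names the Cre driver of the epithelial deletion. IMQ, a TLR7 agonist that provokes psoriasis-like inflammation in mouse skin, was applied to the ear as 10 mg of cream a day for 2 days. The series text gives n = 2, but whether each array holds RNA of 2 mice is not stated, so no value here has a replicate error. Values are RMA levels on the log2 scale, and a difference of 1 is 2-fold. Array medians lay between 6.52 and 6.57, and correlations between arrays across probe sets ran from 0.981 to 0.995. The basal keratins of skin were among the high signals, with Krt5 between 12.41 and 12.82 and Krt14 between 12.29 and 13.02. Traf6 was at 9.35 (EKO, IMQ), 9.65 (EKO, untreated), 9.30 (f/f, IMQ) and 9.51 (f/f, untreated). Its level is thus not lower on the arrays labelled EKO. Since most cell types of the ear keep the gene, and the probes may miss the deleted exons, Traf6 is no check on the genotype.

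Cholesterol is built from acetyl-CoA through mevalonate, isoprenoid diphosphates, squalene and lanosterol. The enzymes of this route are controlled together by the transcription factor SREBP2 (gene Srebf2), which SCAP escorts out of the endoplasmic reticulum when sterols are low and which the INSIG proteins hold back. SREBP1 (gene Srebf1) acts mainly on fatty acid synthesis. In skin, keratinocytes make the cholesterol, fatty acids and ceramides of the barrier, while sebaceous glands and dermal fat also make fatty acids in quantity.

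With IMQ, the sterol branch was higher in both genotypes and the fatty acid branch was not. In EKO skin, all 17 measured sterol enzymes were higher with IMQ, with a median difference of 0.38 (1.30-fold). In f/f skin all 17 were higher too, with a median of 0.72 (1.64-fold). Over all genes above the floor the medians were -0.01 in EKO and 0.01 in f/f. The floor was the array's median of named genes, which a gene had to reach on at least 1 array of the comparison, and the 29 members lay above it on all 4 arrays. Of all genes above the floor, 47.1% were higher and 52.9% lower with IMQ in EKO, 50.6% higher and 49.3% lower in f/f, and 39.1% higher in both. The fatty acid branch had 3 of 6 members higher in EKO (median 0.03) and 1 of 6 higher in f/f (median -0.17). The IMQ comparisons of the genotypes share no array.

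**Figure D1:**
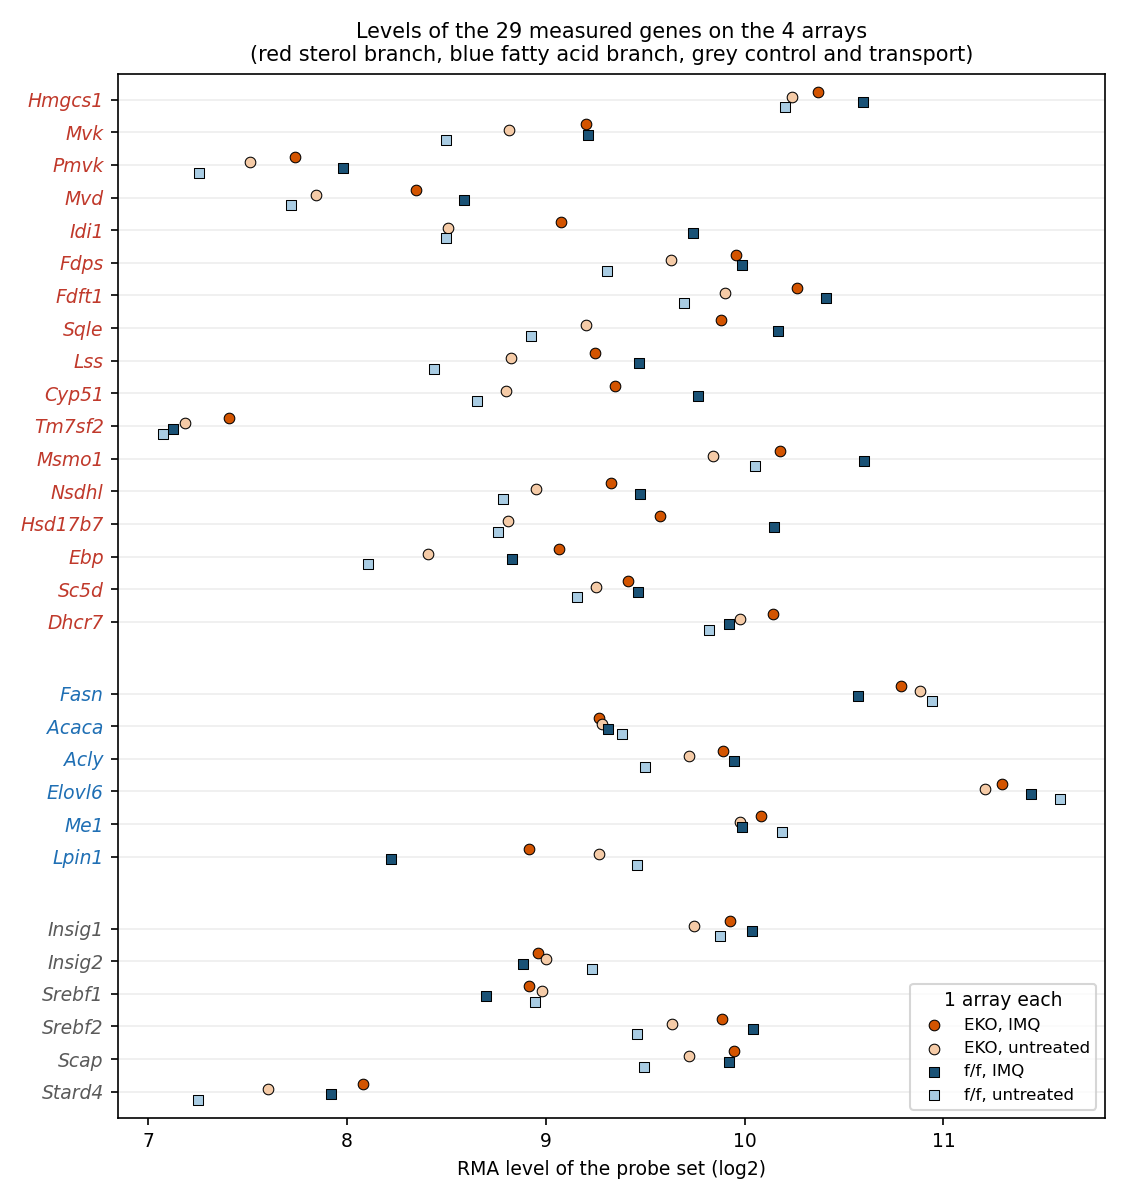
RMA level (log2, horizontal axis) of each measured gene on each of the 4 arrays, with circles for EKO and squares for f/f, dark for IMQ and pale for untreated. In 13 of the 17 sterol genes the arrays stand in the order f/f untreated, EKO untreated, EKO IMQ, f/f IMQ from low to high, while Fasn, Acaca, Elovl6, Me1 and Lpin1 are highest in untreated f/f skin.

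In f/f skin, 5 sterol enzymes were at least 2-fold higher with IMQ, and Lpin1 of the fatty acid branch was at least 2-fold lower. The shares over all genes above the floor were 3.82% and 2.63%. After quantile normalization 4 sterol enzymes were past 2-fold, as Lss came to 0.99. At 1.5-fold, 13 members were higher, of which 12 were sterol enzymes, against 10.2% of all genes. At that size 1 member was lower, against 9.53% of all genes. In EKO skin 0 members reached 2-fold, where 0.671% of all genes did so as higher and 0.0972% as lower. Hsd17b7, Sqle and Ebp reached 1.5-fold higher in EKO, where 2.66% of all genes did, and 0 members reached 1.5-fold lower, where 0.807% did.

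The largest difference in the sterol branch was that of Hsd17b7, a ketoreductase that acts when methyl groups are removed from lanosterol derivatives. Its level was 9.57 with IMQ against 8.81 untreated in EKO skin, and 10.15 with IMQ against 8.76 untreated in f/f skin. The difference was 0.76 (1.70-fold) in EKO and 1.39 (2.62-fold) in f/f, above that of 98.5% and 98.0% of all genes above the floor. Sqle, the squalene epoxidase that is a rate-limiting enzyme of the branch, had 9.88 with IMQ against 9.20 untreated in EKO skin, and 10.17 with IMQ against 8.93 untreated in f/f skin. Its differences were 0.68 in EKO and 1.24 in f/f. Both genes were highest on the f/f IMQ array and lowest on the f/f untreated array. Idi1, which turns isopentenyl diphosphate into its isomer, had 9.08 with IMQ against 8.51 untreated in EKO skin, and 9.74 with IMQ against 8.50 untreated in f/f skin. The untreated arrays of the genotypes were almost level for Idi1, and the IMQ arrays were 0.66 apart, with EKO lower.

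Through the mevalonate steps, all 6 measured enzymes were higher with IMQ in both genotypes, with medians of 0.36 in EKO and 0.72 in f/f. Hmgcs1, which makes the HMG-CoA that enters the route, differed least, at 10.37 with IMQ against 10.24 untreated in EKO and 10.60 with IMQ against 10.21 untreated in f/f. Mvk, the mevalonate kinase, had 9.20 with IMQ against 8.82 untreated in EKO, and 9.21 with IMQ against 8.50 untreated in f/f. Mvk reached nearly the same level with IMQ in both genotypes from unequal untreated levels. Pmvk, the next kinase, differed by 0.22 in EKO and 0.73 in f/f. Mvd, the decarboxylase that gives isopentenyl diphosphate, differed by 0.50 in EKO and 0.87 in f/f. Fdps, the synthase of farnesyl diphosphate, differed by 0.32 in EKO and 0.68 in f/f.

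The 3 enzymes from farnesyl diphosphate to lanosterol had the highest group medians, 0.42 in EKO and 1.03 in f/f. Besides Sqle, they include the squalene synthase Fdft1, with differences of 0.36 in EKO and 0.72 in f/f. Lss, which closes the ring to lanosterol, had 9.25 with IMQ against 8.83 untreated in EKO skin, and 9.47 with IMQ against 8.44 untreated in f/f skin. This gives 0.42 in EKO and 1.03 in f/f.

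The 8 enzymes after lanosterol were the most uneven group, with medians of 0.36 in EKO and 0.62 in f/f. Cyp51, the lanosterol demethylase, had 9.35 with IMQ against 8.80 untreated in EKO skin, and 9.76 with IMQ against 8.65 untreated in f/f skin. The other demethylation enzymes Msmo1 (0.34 in EKO, 0.55 in f/f) and Nsdhl (0.38 in EKO, 0.69 in f/f) lay below Cyp51 and Hsd17b7 in both genotypes. Ebp, the sterol isomerase, differed by nearly as much in EKO as in f/f, with 9.07 with IMQ against 8.41 untreated in EKO and 8.83 with IMQ against 8.11 untreated in f/f. Sc5d, the desaturase, differed by 0.16 in EKO and 0.30 in f/f. Dhcr7, the reductase that ends the route, differed by 0.17 in EKO and 0.10 in f/f. Tm7sf2, the reductase that acts right after Cyp51, had 7.41 with IMQ against 7.19 untreated in EKO and 7.12 with IMQ against 7.07 untreated in f/f. Dhcr7 and Tm7sf2 were the only 2 of the 17 with the larger IMQ difference in EKO.

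**Figure D2:**
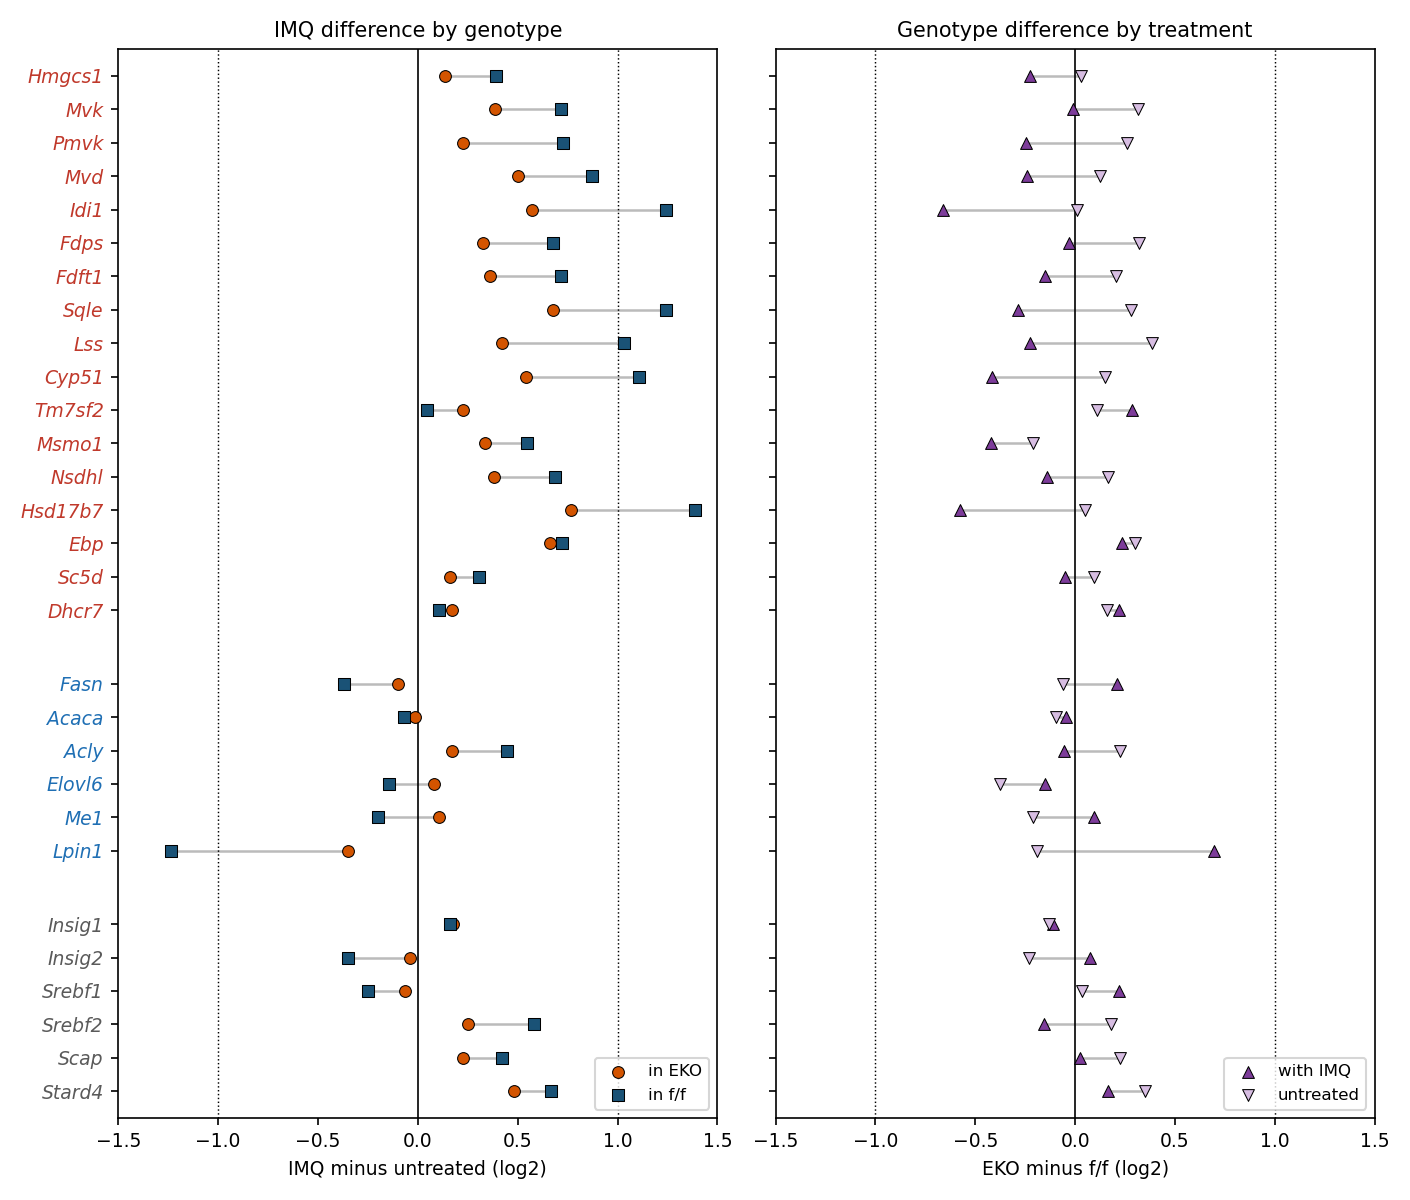
Log2 differences of each measured gene (names in red for the sterol branch, blue for the fatty acid branch, grey for control and transport), with IMQ minus untreated on the left for EKO (circles) and f/f (squares), and EKO minus f/f on the right with IMQ (upward triangles) and untreated (downward triangles). Dotted lines mark 2-fold. All 17 sterol genes lie right of 0 in the left panel, from 0.13 to 0.76 in EKO and from 0.05 to 1.39 in f/f.

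Promoter windows of RefSeq (GRCm38.p6), from 250 bases before to 50 after a start, were found for 26 of the 30 genes, in 35 windows. They are shown for the sterol genes with the largest IMQ differences in f/f skin among those with a window (Hsd17b7, Idi1), for Hmgcs1, chosen because its window alone held the sterol element described next, and for the fatty acid synthase Fasn and Lpin1, the member with the largest difference in that branch. Capitals mark CCAAT, the NF-Y box, on either strand (ATTGG on the strand shown), and TCACNCCAC, a form of the sterol regulatory element bound by SREBP. The windows are chr1:169969156-169969455 (minus strand), chr13:8885356-8885655 (plus), chr13:119690101-119690400 (plus), chr11:120824498-120824797 (minus) and chr12:16610917-16611216 (minus), in that order, each written along its gene.
Hsd17b7: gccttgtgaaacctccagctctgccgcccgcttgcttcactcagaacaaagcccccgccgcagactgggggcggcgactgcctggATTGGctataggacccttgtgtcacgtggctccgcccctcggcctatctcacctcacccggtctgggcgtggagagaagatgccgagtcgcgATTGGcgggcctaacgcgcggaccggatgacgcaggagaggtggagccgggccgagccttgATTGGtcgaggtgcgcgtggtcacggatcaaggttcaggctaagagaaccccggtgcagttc
Idi1: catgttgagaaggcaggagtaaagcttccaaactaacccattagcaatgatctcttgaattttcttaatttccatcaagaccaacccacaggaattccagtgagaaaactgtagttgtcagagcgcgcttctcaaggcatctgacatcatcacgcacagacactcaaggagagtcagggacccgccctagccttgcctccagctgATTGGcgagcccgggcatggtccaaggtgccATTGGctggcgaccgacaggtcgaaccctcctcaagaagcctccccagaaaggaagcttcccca
Hmgcs1: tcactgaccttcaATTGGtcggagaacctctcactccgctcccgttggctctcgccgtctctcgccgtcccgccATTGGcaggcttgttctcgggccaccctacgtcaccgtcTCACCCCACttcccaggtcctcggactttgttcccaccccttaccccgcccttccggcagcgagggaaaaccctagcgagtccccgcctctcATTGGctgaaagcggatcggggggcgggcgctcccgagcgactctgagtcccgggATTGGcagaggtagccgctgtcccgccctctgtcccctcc
Fasn: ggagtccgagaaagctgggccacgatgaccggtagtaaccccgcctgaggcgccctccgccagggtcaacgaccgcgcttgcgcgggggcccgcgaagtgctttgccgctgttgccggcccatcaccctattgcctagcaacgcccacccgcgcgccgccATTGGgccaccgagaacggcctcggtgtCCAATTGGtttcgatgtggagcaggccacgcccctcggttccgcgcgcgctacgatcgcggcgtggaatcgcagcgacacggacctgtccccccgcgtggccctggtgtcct
Lpin1: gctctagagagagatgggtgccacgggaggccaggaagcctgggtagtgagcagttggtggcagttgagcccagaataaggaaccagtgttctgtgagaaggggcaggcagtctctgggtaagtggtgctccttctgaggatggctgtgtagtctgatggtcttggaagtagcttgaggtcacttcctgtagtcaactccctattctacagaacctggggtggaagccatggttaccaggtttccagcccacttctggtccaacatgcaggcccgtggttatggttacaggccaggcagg

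In Hsd17b7 the box letters occur 3 times, with first bases at -165, -73 and -12 from the start. Idi1 has them at -45 and -14. Hmgcs1 holds 4, and TCACNCCAC at -137. Fasn has 3, of which 2 overlap in the run CCAATTGG, and the Lpin1 window has none. CCAAT on either strand was found in 14 of 18 windows of sterol genes (77.8%) and in 3 of 7 windows of fatty acid genes (42.9%). Control and transport genes had it in 5 of 10 windows, and 37.4% of all 32851 windows held it. Counted by gene, 14 of 15 sterol, 3 of 6 fatty acid, and 4 of 5 control and transport genes had it in at least 1 window. Of all genes with a window, 41.1% did. TCACNCCAC on either strand was found in 1 of 35 member windows, that of Hmgcs1, and in 1.24% of all windows. The E-box CACGTG, a palindrome, was found in 3 of 18 sterol windows, 0 of 7 fatty acid windows, 3 of 10 control and transport windows and 7.15% of all windows. These matches describe the letters of the windows and show no binding.

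**Figure D3:**
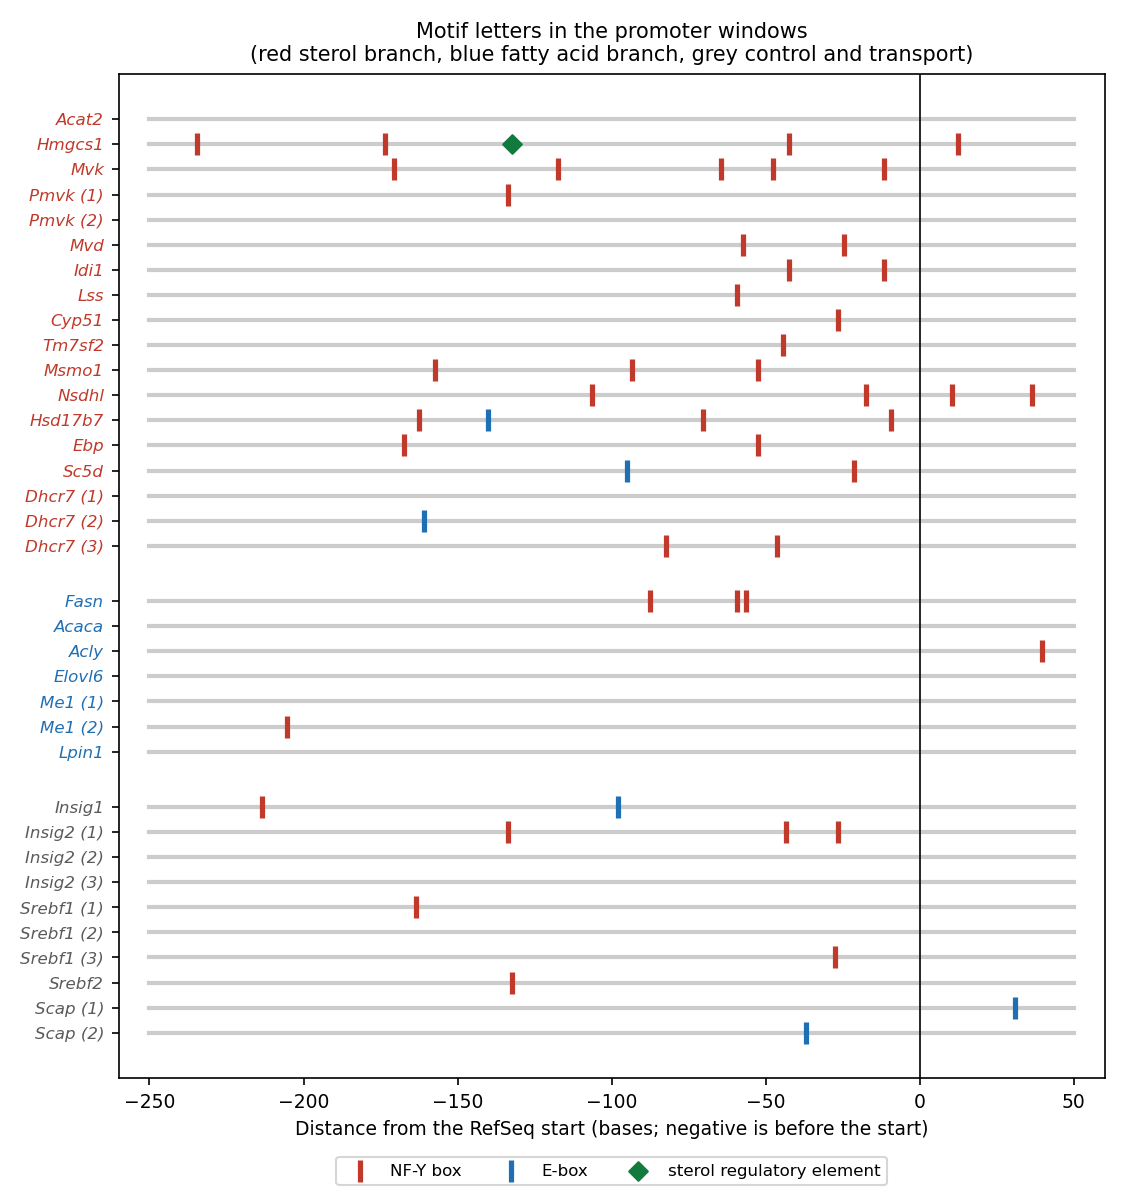
Position of motif letters in each RefSeq promoter window (horizontal axis, bases from the start), with a row per window, marks at the centre of each match, and red for the NF-Y box, blue for the E-box and a green diamond for the sterol regulatory element. Of the 18 windows of sterol genes 14 hold an NF-Y box, and of the 7 windows of fatty acid genes 3 do.

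In the fatty acid branch, the carboxylation and synthesis enzymes were level or lower with IMQ. Fasn, the fatty acid synthase, had 10.78 with IMQ against 10.88 untreated in EKO skin, and 10.57 with IMQ against 10.94 untreated in f/f skin. Acaca, the acetyl-CoA carboxylase that commits carbon to fatty acids, had 9.27 with IMQ against 9.28 untreated in EKO, and 9.31 with IMQ against 9.38 untreated in f/f. A further Acaca probe set gave -0.04 in EKO and -0.24 in f/f. Acly, the citrate lyase that supplies acetyl-CoA to both branches, was the only member of its group with a higher level under IMQ in f/f. It had 9.89 with IMQ against 9.72 untreated in EKO, and 9.95 with IMQ against 9.50 untreated in f/f.

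The elongase Elovl6 had 11.29 with IMQ against 11.21 untreated in EKO skin, and 11.44 with IMQ against 11.59 untreated in f/f skin. Me1, the malic enzyme that yields NADPH for synthesis, had 10.08 with IMQ against 9.98 untreated in EKO, and 9.99 with IMQ against 10.19 untreated in f/f. For both genes the IMQ difference was above 0 in EKO and below 0 in f/f, and all 4 of these differences lay between -0.20 and 0.11. Lpin1, a phosphatidate phosphatase of glycerolipid synthesis, stood apart from the other members. Its level was 8.92 with IMQ against 9.27 untreated in EKO skin, and 8.22 with IMQ against 9.46 untreated in f/f skin. The difference was -0.35 in EKO and -1.24 (2.35-fold lower) in f/f. Only 1.28% of all genes above the floor had a lower value than Lpin1 in f/f.

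Among the control genes, Srebf2 was higher with IMQ in both genotypes and Srebf1 was not. Srebf2 had 9.89 with IMQ against 9.63 untreated in EKO skin, and 10.04 with IMQ against 9.46 untreated in f/f skin. Srebf1 had 8.92 with IMQ against 8.98 untreated in EKO, and 8.70 with IMQ against 8.95 untreated in f/f. Srebf2 was thus higher with IMQ by 0.25 in EKO and 0.58 in f/f, whereas Srebf1 stood at -0.06 in EKO and -0.25 in f/f. Scap differed by 0.22 in EKO and 0.42 in f/f. Insig1, itself a target of SREBP that feeds back on it, differed by 0.18 in EKO and 0.16 in f/f, and Insig2 by -0.04 in EKO and -0.35 in f/f. Stard4, a carrier of cholesterol between membranes, had 8.08 with IMQ against 7.60 untreated in EKO, and 7.92 with IMQ against 7.25 untreated in f/f.

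**Figure D4:**
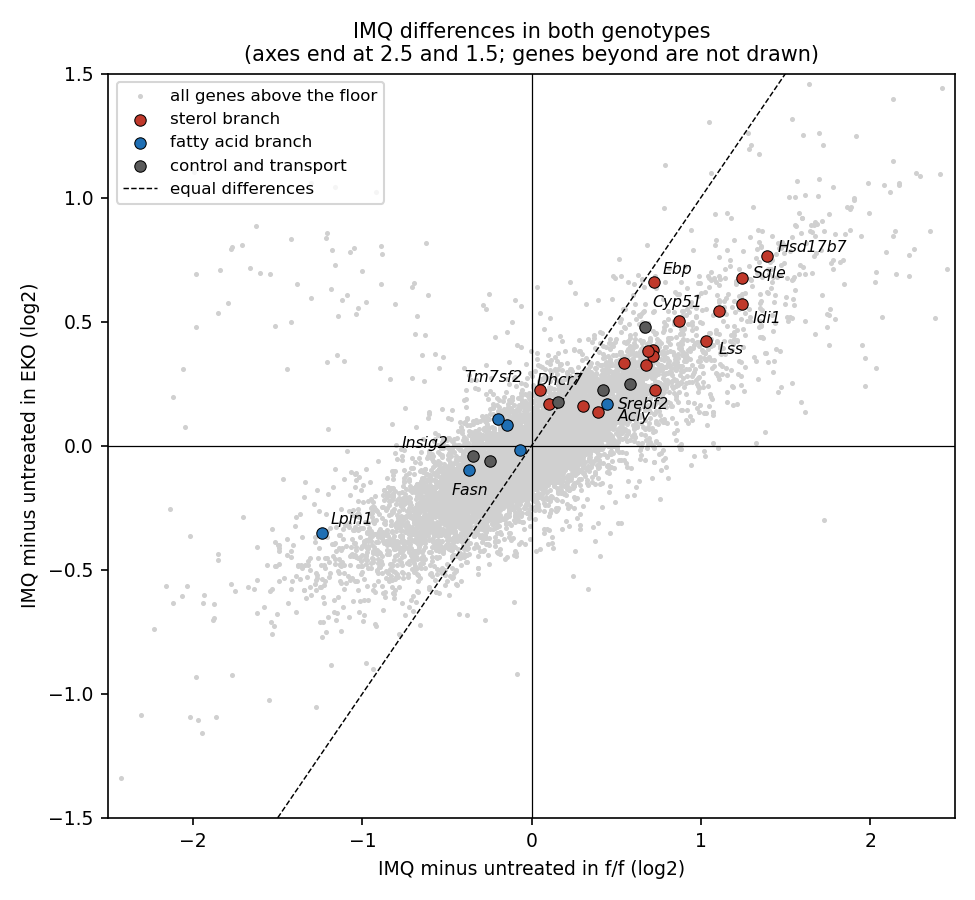
IMQ minus untreated (log2) in f/f on the horizontal axis and in EKO on the vertical axis, with small grey points for all genes above the floor within the axes and larger points for the measured members (red sterol, blue fatty acid, dark grey control and transport). All 17 sterol genes lie in the upper right quadrant, and 15 of them lie below the dashed line of equal differences.

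In size, the IMQ difference was smaller in EKO than in f/f for 15 of 17 sterol genes and 6 of 6 fatty acid genes. The same held for 80.5% of all genes above the floor, so the branches share this with most genes. The IMQ difference in EKO minus that in f/f had a median of -0.35 in the sterol branch, 0.25 in the fatty acid branch and -0.02 over all genes. It was below 0 in 15 of 17 sterol genes, as in 53.3% of all genes, and above 0 in 5 of 6 fatty acid genes, as in 46.7%. For the sterol genes this repeats the count by size, since all 17 were higher with IMQ in both genotypes. No member reached 2-fold in the IMQ difference of EKO minus that of f/f, against 1.06% of all genes upward and 1.18% downward. At 1.5-fold, Idi1 (-0.67), Hsd17b7 (-0.63) and Lss (-0.61) were lower, against 4.63% of all genes, and Lpin1 (0.89) was higher, against 3.65%. With 1 array a group, this value has no test.

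In the sterol branch EKO stood mostly above f/f without IMQ and mostly below it with IMQ. With IMQ, 14 of 17 sterol genes were lower in EKO than in f/f (median -0.22), where 50.9% of all genes were lower and 49.1% higher. Untreated, 16 of 17 were higher in EKO (median 0.16), where 55.1% of all genes were higher and 44.9% lower. In 13 genes both held, as in 28.6% of all genes. All 17 were higher with IMQ in EKO, so these 13 necessarily had a full order of arrays. It was f/f untreated, EKO untreated, EKO IMQ, f/f IMQ from low to high, found in 20.0% of all genes. This order requires a higher level with IMQ in both genotypes, which 39.1% of all genes had. Under cyclic loess scaling Hmgcs1 (-0.00) and Idi1 (-0.02) turned below 0 in the untreated comparison, and Idi1 did so under quantile normalization too (-0.00). The exceptions were Tm7sf2, Ebp and Dhcr7, higher in EKO in both comparisons, and Msmo1, lower in both (-0.42 with IMQ, -0.21 untreated). No member reached 2-fold between genotypes. With IMQ the shares of all genes past 2-fold were 0.418% higher and 0.875% lower in EKO, and untreated they were 0.0686% higher and 0.324% lower. Untreated, 0 members reached 1.5-fold, against 0.647% of all genes higher and 1.06% lower. The genotype comparisons use the same 4 arrays as the IMQ comparisons, so they are not separate evidence.

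Among single genes, Idi1 had 9.08 in EKO against 9.74 in f/f with IMQ (-0.66), the sole member at least 1.5-fold lower there, as were 2.61% of all genes. Lpin1 had 8.92 in EKO against 8.22 in f/f with IMQ (0.70), the sole member at least 1.5-fold higher, as were 2.03% of all genes. Untreated, Lss had 8.83 in EKO against 8.44 in f/f (0.39), the highest value, and Elovl6 had 11.21 in EKO against 11.59 in f/f (-0.37), the lowest. The fatty acid branch had a median of 0.03 with IMQ and -0.14 untreated, and 5 of its 6 members were lower in untreated EKO skin.

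Averaged over the genotypes, the IMQ effect can be tested with limma on 10646 genes, with genotype as covariate and 1 residual degree of freedom. That test weighs the mean effect against the genotype-by-IMQ difference and not against a spread between animals. By limma, 0 of 29 members passed an adjusted p of 0.05, as did 0.0% of all genes, the lowest adjusted p of any gene being 0.162. At an unadjusted p below 0.05 limma counted 13 of 17 sterol genes as higher, 3 of 6 control genes as higher and Lpin1 as lower. Over all genes it counted 2808 (26.4%), 12.3% as higher and 14.1% as lower. For Hsd17b7 limma gave 1.08 (SE 0.19, adjusted p = 0.162), for Ebp 0.69 (SE 0.10, adjusted p = 0.162) and for Fasn -0.23 (SE 0.12, adjusted p = 0.279). Averaged over treatment, the EKO effect passed limma's adjusted p in 0 members and in 0.0% of all genes, where 344 genes (3.23%) had an unadjusted p below 0.05, 1.93% as higher and 1.3% as lower. Ebp was the only member among these, higher in EKO by 0.27 (limma, SE 0.10, adjusted p = 0.999).

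Some other genes of these pathways differed by more than any member. Of 16 further fatty acid genes, 6 were higher and 10 lower with IMQ in each genotype, with medians of -0.06 in EKO and -0.35 in f/f. The elongase Elovl3 had 9.65 with IMQ against 8.58 untreated in EKO, and 10.44 with IMQ against 8.88 untreated in f/f, the highest difference of this set. Elovl7, also an elongase, followed with 0.72 in EKO and 0.91 in f/f. The desaturase Scd3 had 6.63 with IMQ against 7.20 untreated in EKO, and 6.96 with IMQ against 9.12 untreated in f/f. Thrsp, a regulator of lipogenesis, had 7.62 with IMQ against 8.19 untreated in EKO, and 6.55 with IMQ against 8.59 untreated in f/f. These were the lowest of the set, and Scd3 in EKO and Thrsp in f/f were below the floor with IMQ.

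Between genotypes, Scd3 was at 6.63 in EKO against 6.96 in f/f with IMQ (-0.32), and at 7.20 in EKO against 9.12 in f/f untreated (-1.92), the lowest untreated value. Elovl5, an elongase of polyunsaturated fatty acids, came next untreated (-0.69). The highest untreated values were those of Elovl1 (0.25) and Scd2 (0.22). With IMQ, Thrsp (1.07) and Cyp27a1 (0.55), a sterol hydroxylase of oxysterol synthesis, were the highest in EKO against f/f, and Elovl3 (-0.80) was the lowest. In the IMQ difference of EKO minus that of f/f, Scd3 (1.60) and Thrsp (1.47) were the highest, and Elovl3 (-0.50) and Ch25h (-0.45), the cholesterol hydroxylase, the lowest. Ch25h lay below the floor on all 4 arrays. Of 5 measured further isoprenoid and sterol genes, 3 were higher with IMQ in each genotype, Ch25h among them. The medians were 0.06 in EKO, which is the value of Ch25h itself, and 0.31 in f/f. Of 4 measured liver X receptor and efflux genes, which act when sterols are in excess, 3 were lower with IMQ in each genotype, with medians of -0.14 in EKO and -0.55 in f/f.

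Markers of several cell types also differed with IMQ. In bulk skin, fewer cells of a type and less RNA per cell cannot be told apart. All 7 measured markers of dividing cells were higher with IMQ, with medians of 0.99 in EKO and 1.90 in f/f, though 4 of them reached the floor on all arrays and 1 on the f/f IMQ array alone. Their summed linear signal was 3231 with IMQ against 1661 untreated in EKO, and 4129 with IMQ against 1050 untreated in f/f. This is the same order of arrays as in 13 sterol genes and in 20.0% of all genes. The sum of the neutrophil and monocyte markers, given below, had this order without Lyz2 and not with it. In that list 5 of 8 markers reached the floor on the f/f IMQ array alone. Of 7 measured interfollicular keratinocyte markers 5 were higher in EKO (median 0.04) and 4 in f/f (median 0.08), with sums of 40995 with IMQ against 37025 untreated in EKO and 38398 with IMQ against 30533 untreated in f/f.

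All 10 measured adipocyte markers were lower with IMQ in both genotypes, with medians of -0.40 in EKO and -1.32 in f/f. Their sum was 12219 with IMQ against 15897 untreated in EKO, and 9023 with IMQ against 21420 untreated in f/f. The order of these sums was f/f IMQ, EKO IMQ, EKO untreated, f/f untreated from low to high. It was also that of the members Fasn, Lpin1 and Insig2, and of 7 of the 16 further fatty acid genes, Thrsp among them. The share of all genes in this order was not counted, so the match ties no gene to adipocytes. All 7 skeletal muscle markers were likewise lower and in this order, with medians of -0.33 in EKO and -0.88 in f/f and sums of 13173 with IMQ against 15964 untreated in EKO and 9626 with IMQ against 17873 untreated in f/f. Sebaceous markers, which include Scd3 and Elovl3, were higher in 6 of 10 in EKO (median 0.18) and in 5 of 10 in f/f (median -0.10), and 9 of 10 were lower in EKO than in f/f both with IMQ (median -0.43) and untreated (median -0.68). Their sum was 8156 with IMQ against 6672 untreated in EKO, and 10414 with IMQ against 9203 untreated in f/f, with Awat2 below the floor on all arrays. Of the 8 neutrophil and monocyte markers, 5 reached the floor on the f/f IMQ array alone, so no count is given for this list. Of the other 3, Cxcr2 was at 8.16 with IMQ against 7.11 untreated in EKO and 8.94 with IMQ against 6.18 untreated in f/f, and Itgam was at 8.49 with IMQ against 7.55 untreated in EKO and 8.81 with IMQ against 7.73 untreated in f/f. Lyz2 went the other way, at 11.12 with IMQ against 11.28 untreated in EKO and 10.84 with IMQ against 11.56 untreated in f/f. Lyz2 makes up most of the summed signal on each array except that of f/f with IMQ. The sum was 3167 with IMQ against 3046 untreated in EKO and 4057 with IMQ against 3538 untreated in f/f. Without Lyz2 the sum was 948 with IMQ against 561 untreated in EKO, and 2220 with IMQ against 511 untreated in f/f. The part of any of these cell types in the values of the lipid genes was not tested.

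**Figure D5:**
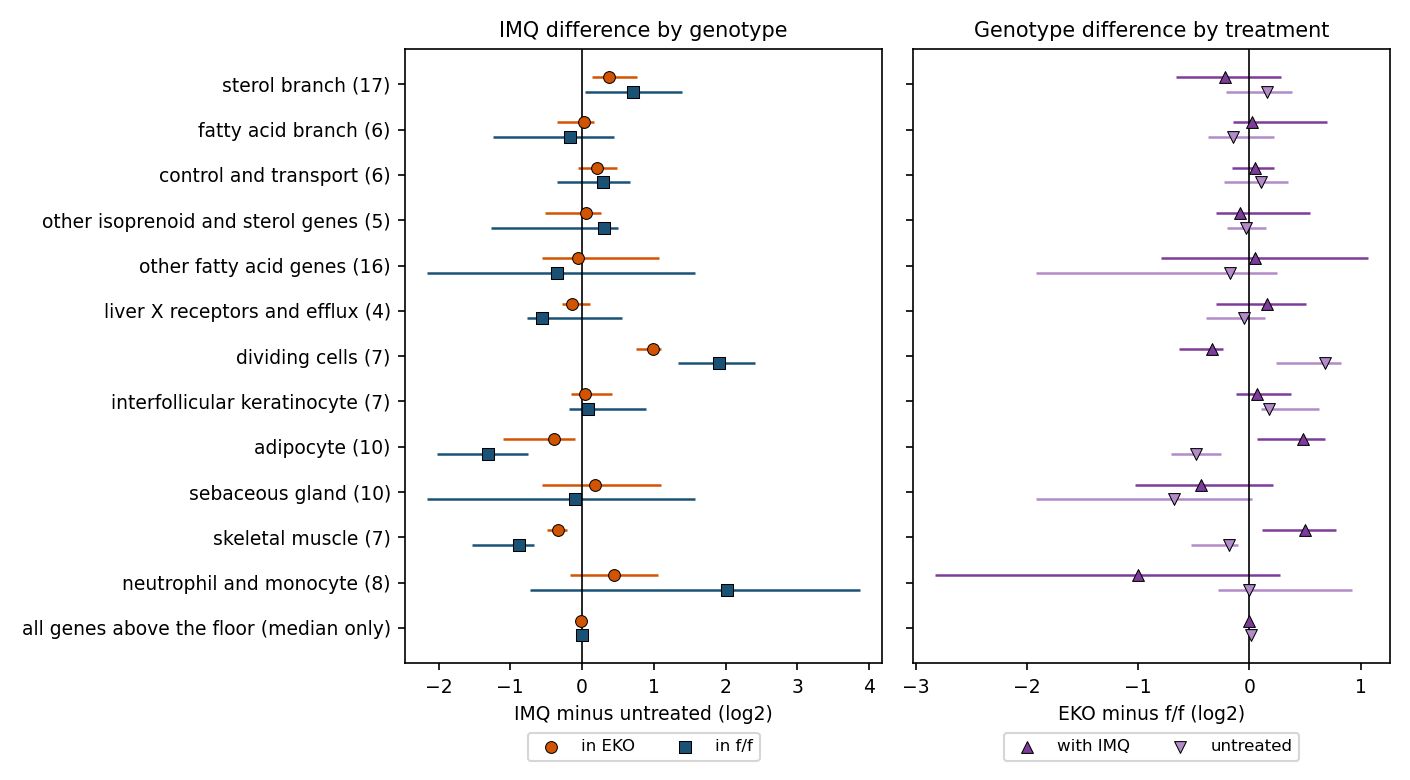
Median (point) and range (line) of the log2 differences in each gene list, with the number of measured genes in brackets, for IMQ minus untreated (left) and EKO minus f/f (right); for all genes only the median is drawn, and 5 of the 8 neutrophil and monocyte genes reach the floor in f/f with IMQ alone. With IMQ the sterol branch had medians of 0.38 (EKO) and 0.72 (f/f), between those of dividing cells (0.99 and 1.90) and of interfollicular keratinocytes (0.04 and 0.08).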

How the data were processed

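Expression was measured on 4 arrays, 1 for each combination of genotype and treatment, grouped by sample title. The authors deposited levels on the log2 scale, made with RMA (background correction, quantile normalization and summarisation of probes), per the submitters' processing notes; no source used here gives its version. RMA equalises arrays, so a shift shared by most genes cannot be seen, and differences of dim probe sets come out too small. The number of arrays limits the precision.

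Of 35556 probe sets, 21789 carry 1 gene symbol in the platform annotation, and only these were named; the symbols of all 29 measured members match RefSeq by Entrez identifier. Log2 differences were taken for 5 comparisons, counted at 2-fold and 1.5-fold above a floor of 6.93 to 6.98. The mean IMQ effect over genotypes and the mean EKO effect over treatments came from limma 3.58.1 in R 4.3.3 (lmFit, eBayes with a trend, Benjamini-Hochberg adjustment over all genes). The IMQ fit was also run on simulated data in which the changes were equal in both genotypes. Tables were handled in Python 3.11.15 with pandas 2.3.3. All members are named. Of other pathway genes, the 2 highest and 2 lowest per comparison are named, as are the 4 measured liver X receptor genes and targets. Members, lists and tests were chosen with earlier results of these data known. Alternatives were 3 other scalings between arrays, other floors, thresholds, list statistics and probe set rules, and other limma settings.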

Additional observations from a re-analysis of the deposited data

Results flagged for a closer look

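For Elovl6 and Me1 the IMQ difference had opposite signs in the 2 genotypes. Elovl6 was at 0.08 in EKO and -0.14 in f/f, a difference of 0.22 between the genotypes. Me1 was at 0.11 in EKO and -0.20 in f/f, a difference of 0.30. A further Me1 probe set gave 0.11 in EKO and -0.19 in f/f. With 1 array a group these differences were not tested.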

How the results depend on the processing

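Over 4 alternatives each, 2 of 580 recomputed member values moved by 0.1 or more on the log2 scale, the largest move being 0.12, and 4 of 145 values changed sign under at least 1 of them. These were Hmgcs1 and Idi1 in untreated EKO against f/f, Acaca in EKO against f/f with IMQ (0.01 with the mean of its probe sets), and Insig1 in EKO IMQ difference minus f/f IMQ difference (-0.02 with arrays scaled to a common median). The count of members at least 2-fold higher for IMQ in f/f was 4 after quantile normalization, without Lss, against 5. At a 1.5-fold threshold the members counted as higher became 3 for IMQ in EKO, 13 for IMQ in f/f, 1 for EKO against f/f with IMQ and 1 for the difference of the IMQ differences. Those counted as lower became 1 for EKO against f/f with IMQ and 3 for the difference of the IMQ differences. The fatty acid median for IMQ in f/f was -0.28 after quantile normalization, and for EKO against f/f with IMQ it was 0.13 as a mean. The sterol median stayed between 0.38 and 0.40 for IMQ in EKO and between 0.68 and 0.77 for IMQ in f/f. By limma, 0 genes passed the adjusted p under any setting tried, while members at an unadjusted p below 0.05 for the EKO effect numbered 0 with arrays scaled to a common median, 2 after quantile normalization and 0 without the treatment covariate, against 1; the cause was not tested. Scalings shifted the median of all genes by at most 0.05. No replicate could be left out and no paired analysis was possible because each group has 1 array.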

Other observations

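Further probe sets of members agreed in direction with those used for the IMQ differences. Idi1 had 0.57 in EKO and 1.29 in f/f on its other probe set, and Fdft1 had 0.39 in EKO and 0.86 in f/f. A probe set that lists Srebf2 together with other genes gave -0.01 in EKO and 0.05 in f/f, and was not used.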
